A study of Mus musculus with 23 samples.

Results

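Expression of 9 B cell identity and receptor genes (Cd79a, Cd79b, Ms4a1, Cr2, Cd22, Fcer2a, Pax5, Blk and Bank1) was examined in 23 RNA-seq libraries of mouse melanoma. The members were taken by symbol after Ensembl identifiers were matched to gene names, and all 9 were found among 37620 identifiers, 32897 of which carried a name. They were described by their level in every library as CPM, that is, the reads of a gene relative to all reads assigned to genes in the library. The CPM were scaled by TMM (a normalisation that lines up the bulk of genes between libraries).

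B cells sense antigen through a surface immunoglobulin whose signal is carried into the cell by the CD79A and CD79B chains. Kinases of the Src family such as BLK start that signal, adaptors such as BANK1 relay it, and co-receptors raise or lower it: CR2 (CD21) binds complement on antigen, while CD22 recruits phosphatases that restrain the receptor. The transcription factor PAX5 holds cells in the B lineage, and B cells make up the follicles of lymph nodes.

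The tumours were induced by ultraviolet light, according to the series title. The 7 HP primary melanomas were labelled Nme1wt / Nme2wt. The 7 HPN primary melanomas, 7 lymph node metastases and 2 lung metastases were labelled Nme1+/- / Nme2+/-. The labels give no age, sex or tumour stage, and they do not spell out what other alleles the HP and HPN prefixes stand for. The node metastases came from numbers 3, 4 and 8 (brachial), 6 and 7a (cervical), 7b (inguinal) and 5 (site given as lymph), and the lung metastases from numbers 3 and 4. Nodes 7a and 7b share a number and were counted as 1 sample in tests and means, which left 6 node samples. A number was read as 1 mouse in the HPN series, although no label states that. No label says that the primaries of a group came from separate animals, and the p-values then reflect only how much these samples vary.

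Libraries held 18870759 to 89481553 reads in genes, and 49.2% to 75.0% of all reads in the tables were in entries that name no gene (outside genes, ambiguous, not aligned or not unique). In 8 libraries (4 HP primaries, 1 HPN primary, 3 nodes and no lung metastasis) the tables listed reads of low alignment quality, and that entry was treated as a batch. Nme1 ranged from 7.69 to 29.8 CPM in HP primaries and from 5.30 to 13.1 CPM in HPN primaries, and the groups overlapped. Nme2 ranged from 0.313 to 0.878 CPM (median 0.404) in HP primaries and from 0.0698 to 0.407 CPM (median 0.231) in HPN primaries, lower by its median in the group labelled Nme1+/- / Nme2+/- and with less overlap. The label lung was checked with 10 alveolar genes: their summed level was 103 CPM in lung 3, inside the 76.2 to 145 CPM of the primaries, and 8398 CPM in lung 4. Sftpc, the alveolar surfactant gene, was at 0.193 CPM in lung 3 and 4672 CPM in lung 4.

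Because the members moved together, the sequences around their transcription starts are shown for a chain of the receptor (Cd79a) and for the co-receptors Cr2 and Cd22, whose levels stood apart from the rest in some libraries. Short motifs known from B cell promoters were searched in them. RefSeq windows of 300 bases (250 before to 50 after the start, build GRCm38.p6) were matched for 6 members in 8 windows, but not for Cd79b, Ms4a1 and Blk. In another annotation of this build, the 5′ end of Cd22 is at base 30880342, so its RefSeq window lies inside the gene. Capitals mark matches to a searched motif on either strand. The windows lie at chr7:24897247-24897546 on the plus strand (Cd79a), chr1:195176670-195176969 on the minus strand (Cr2) and chr7:30878979-30879278 on the minus strand (Cd22), and each is printed in the direction of transcription.
Cd79a: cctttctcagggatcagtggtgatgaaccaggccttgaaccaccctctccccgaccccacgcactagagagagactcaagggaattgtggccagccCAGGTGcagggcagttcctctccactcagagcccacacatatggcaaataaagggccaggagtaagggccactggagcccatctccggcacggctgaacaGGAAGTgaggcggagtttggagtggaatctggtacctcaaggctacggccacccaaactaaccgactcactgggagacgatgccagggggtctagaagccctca
Cr2: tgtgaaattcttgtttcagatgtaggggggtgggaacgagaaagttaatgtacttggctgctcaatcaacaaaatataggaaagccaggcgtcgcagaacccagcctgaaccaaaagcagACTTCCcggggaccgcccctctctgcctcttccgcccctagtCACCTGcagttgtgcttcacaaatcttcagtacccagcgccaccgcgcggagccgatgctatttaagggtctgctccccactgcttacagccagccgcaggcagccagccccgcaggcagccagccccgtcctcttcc
Cd22: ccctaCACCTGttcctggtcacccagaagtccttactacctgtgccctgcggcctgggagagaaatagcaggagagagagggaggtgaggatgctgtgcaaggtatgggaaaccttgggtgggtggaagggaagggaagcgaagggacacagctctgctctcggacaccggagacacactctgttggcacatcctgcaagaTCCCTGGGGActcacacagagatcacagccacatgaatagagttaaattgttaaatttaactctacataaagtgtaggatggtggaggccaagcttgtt

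In Cd79a, the capitals are an E-box (CAGGTG, the kind of site that E proteins bind) at bases 97 to 102 and an ETS core (GGAAGT) at bases 197 to 202, counted from 1 at the 5′ end. In Cr2 they are an ETS core at bases 121 to 126 and an E-box at bases 163 to 168, both on the opposite strand. In Cd22 they are an E-box on the opposite strand at bases 6 to 11 and an EBF1-type site (TCCCNNGGG). The EBF1-type site was matched at bases 202 to 210 and, on the opposite strand, at the overlapping bases 203 to 211. The E-box occurred in 5 of the 8 member windows, against 20.2% of all 32851 windows, and the ETS core in 4 of 8, against 23.8%; Fcer2a has 3 of the 8 windows. The EBF1-type site was matched in 1 of the 8, that of Cd22, against 6.56% of all windows. The octamer ATTTGCAT (1.74% of all windows), a PU.1-type site GAGGAAG (13.6%), an NF-kB-type site GGGNNTTCC (5.82%) and a RUNX-type site TGTGGTT (5.27%) were not matched in any member window. Several of these letters can overlap, as a PU.1-type site shares its core with ETS sites. A match is a description of letters and no evidence of binding.

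All 9 members were higher in lymph node metastases than in primary melanomas, and no primary reached the lowest node for any of them. In the comparison of nodes with HPN primaries, 22.5% of 19152 genes tested passed an adjusted p of 0.05 (12.7% higher and 9.81% lower). Of the members, 9 of 9 rose, with a median log2 fold change of 7.94 beside -0.08 over all genes tested. All 9 passed the filter on low counts in that fit, which includes the nodes; Ms4a1, Fcer2a and Pax5 did not pass it in the fit of primaries alone. In these pieces of tissue, more cells of a type and more RNA per cell cannot be told apart, and the nodes hold lymph node tissue as well as tumour. Of the T cell genes 16 of 17 also rose. The summed T cell level was 227 to 1041 CPM in nodes and 20.6 to 117 CPM in HPN primaries. The part of lymph node tissue in the result was not tested.

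Cd79a and Cd79b encode the signalling chains of the B cell receptor. Cd79a was at 59.6 CPM in node 3, 25.7 in node 4, 190 in node 5, 179 in node 6, 194 in node 7a, 162 in node 7b and 188 in node 8. In HPN primaries it ran from 0.0348 to 1.67 CPM with a median of 0.384. The groups did not overlap, and nodes 3 and 4 lay well below the other 5 libraries, which were close to each other. The log2 fold change was 7.94 (SE 0.79, adjusted p = 4.73e-05). Cd79b ran from 36.6 to 255 CPM in nodes (median 177) and from 0.289 to 1.82 CPM in HPN primaries (median 0.692), with a log2 fold change of 7.57 (SE 0.68, adjusted p = 3.66e-05). The ranges of the 2 chains in nodes overlapped widely.

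Ms4a1 encodes CD20, a membrane protein of mature B cells. Its levels in nodes ran from 26.6 to 266 CPM with a median of 193, against 0 to 0.911 CPM in HPN primaries with a median of 0.185. HPN primary 4 held 0 reads of Ms4a1, where 3 reads would be 0.0868 CPM. Ms4a1 had the largest log2 fold change of the members, 8.86 (SE 0.91, adjusted p = 5.51e-05).

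Among the co-receptors, Cr2 was at 38.6 CPM in node 3, 27.5 in node 4, 363 in node 5, 199 in node 6, 159 in node 7a, 113 in node 7b and 214 in node 8. It ran from 0.105 to 2.10 CPM in HPN primaries, with a median of 0.277. Node 5 stood highest and node 4 lowest, 13.2-fold apart. Its log2 fold change was 7.94 (SE 0.89, adjusted p = 9.51e-05). CR2 is also made by follicular dendritic cells, the stromal cells that hold antigen in follicles, and of 12 genes on a list for those cells 5 rose (Vcam1, Cxcl13, Tnfsf13b, Clu and Madcam1) and 2 fell (Ltbr and Prnp). Which of these cells carried Cr2 was not tested.

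Cd22, the inhibitory lectin, was the member with the smallest rise. It was at 48.5 to 414 CPM in nodes (median 283) and at 2.78 to 18.3 CPM in HPN primaries (median 10.2). The groups did not overlap, but the lowest node was only 2.08 times the highest of all 14 primaries, where that ratio was 7.31 to 23.4 for the other 8 members. The log2 fold change was 4.43 (SE 0.58, adjusted p = 0.000243). Fcer2a, which encodes the low-affinity IgE receptor CD23 of follicular B cells, ran from 15.8 to 181 CPM in nodes (median 72.3) and from 0 to 1.09 CPM in HPN primaries (median 0.131), a log2 fold change of 7.94 (SE 1.02, adjusted p = 0.000197).

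Pax5, the factor of B lineage commitment, ran from 15.9 to 168 CPM in nodes (median 74.9) and from 0 to 0.679 CPM in HPN primaries (median 0.0923). Its log2 fold change was 8.34 (SE 0.85, adjusted p = 5.51e-05). The kinase gene Blk ran from 10.3 to 109 CPM in nodes (median 54.9) and from 0.139 to 0.977 CPM in HPN primaries (median 0.407), a log2 fold change of 6.96 (SE 0.68, adjusted p = 4.73e-05). The adaptor gene Bank1 ran from 26.1 to 356 CPM in nodes (median 168) and from 0.209 to 1.49 CPM in HPN primaries (median 0.646), a log2 fold change of 7.69 (SE 0.70, adjusted p = 3.66e-05). For all 3 genes node 5 was the highest library and node 4 the lowest.

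**Figure D1:**
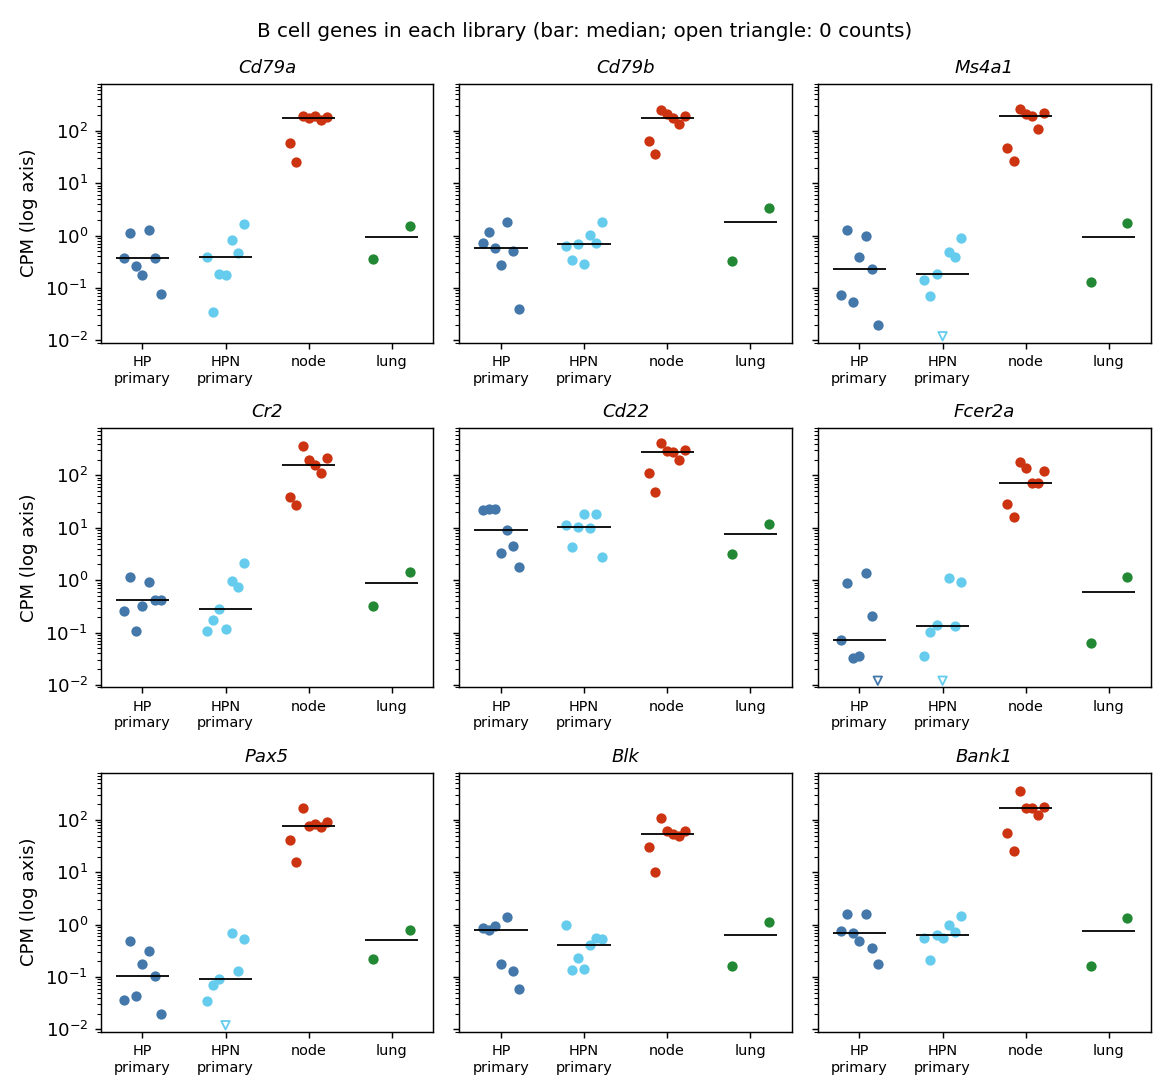
CPM on a log axis of the 9 genes in each of the 23 libraries, by group. Points are libraries, bars are medians and open triangles are libraries with 0 counts. Every node lies above every primary and lung library, and Cd22 alone has primaries above 3 CPM.

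With the mouse number as a replicate block, 9 of 9 members still rose, with adjusted p between 0.00679 and 0.0285. The same 9 passed with the low-quality batch as a term in the fit.

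**Figure D2:**
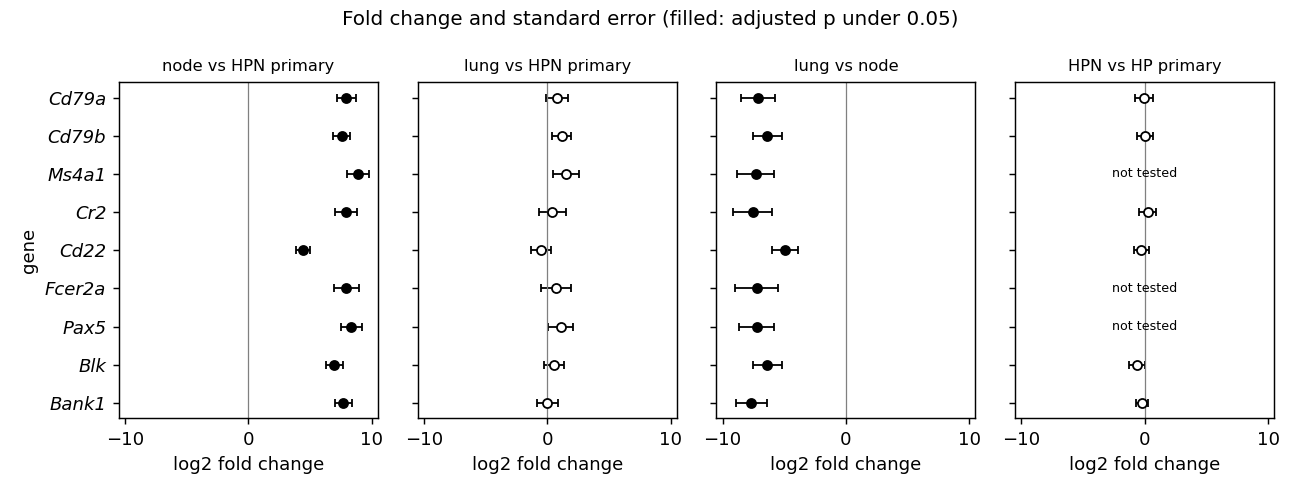
Log2 fold change of each gene with its standard error in the 4 comparisons. Filled points have an adjusted p under 0.05: 9 of 9 for node against HPN primary, 0 of 9 for lung against HPN primary, 9 of 9 for lung against node and 0 of 6 for HPN against HP primary.

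Levels of different genes were set side by side per kilobase of exon, with the length taken over all annotated exons of a gene. That annotation is of another build than the counts, and the order between genes also depends on this choice of length. The median over the 7 node libraries was 124 CPM per kb for Cd79b and 123 for Cd79a. It was 56.2 CPM per kb for Cd22, 31.2 for Ms4a1, 23.4 for Fcer2a, 22.4 for Bank1, 20.4 for Blk, 19.6 for Cr2 and 8.46 for Pax5. Cd79a was above Cd22, Cd22 above Ms4a1, Fcer2a above Bank1 and Cr2 above Pax5 in 7 of 7 node libraries. Other neighbours were not separated in this way: Cd79b exceeded Cd79a in 5 of 7, Bank1 exceeded Blk in 4 of 7, and Ms4a1, though higher by its median, exceeded Fcer2a in only 1 of 7.

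The nodes kept nearly the same order from gene to gene. Node 5 was highest for 8 of 9 members, the exception being Cd79a (highest in node 7a), and node 3 was sixth and node 4 last for all 9. The highest node exceeded the lowest by 6.98-fold (Cd79b) to 13.7-fold (Bank1). The summed level of the 9 genes was 477 CPM in node 3, 233 in node 4, 2301 in node 5, 1533 in node 6, 1384 in node 7a, 1042 in node 7b and 1573 in node 8. Nodes 3 and 4 were below the other 5 for every member, by a gap of 1.66-fold (Blk) to 2.92-fold (Cr2). The brachial nodes held both ends of this range, since node 8 was among the higher libraries and nodes 3 and 4 were the lowest.

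Over the same nodes, the 14 melanocyte genes summed to 33712 CPM in node 3, 47011 in node 4, 4984 in node 5 and 15027 to 21856 in the other 4 libraries. The 2 nodes lowest in B cell genes were thus the highest in melanocyte genes, and node 5 was the highest in B cell and the lowest in melanocyte genes. The T cell list summed to 516 CPM in node 3, 227 in node 4, and 673 to 1041 in the other 5. The ratio of the B cell sum to the T cell sum was 0.923 and 1.03 in nodes 3 and 4 and 1.48 to 2.21 in the others, and the highest node exceeded the lowest by 9.88-fold in the B cell sum and 4.58-fold in the T cell sum. The part of tissue make-up in these node levels was not tested.

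**Figure D3:**
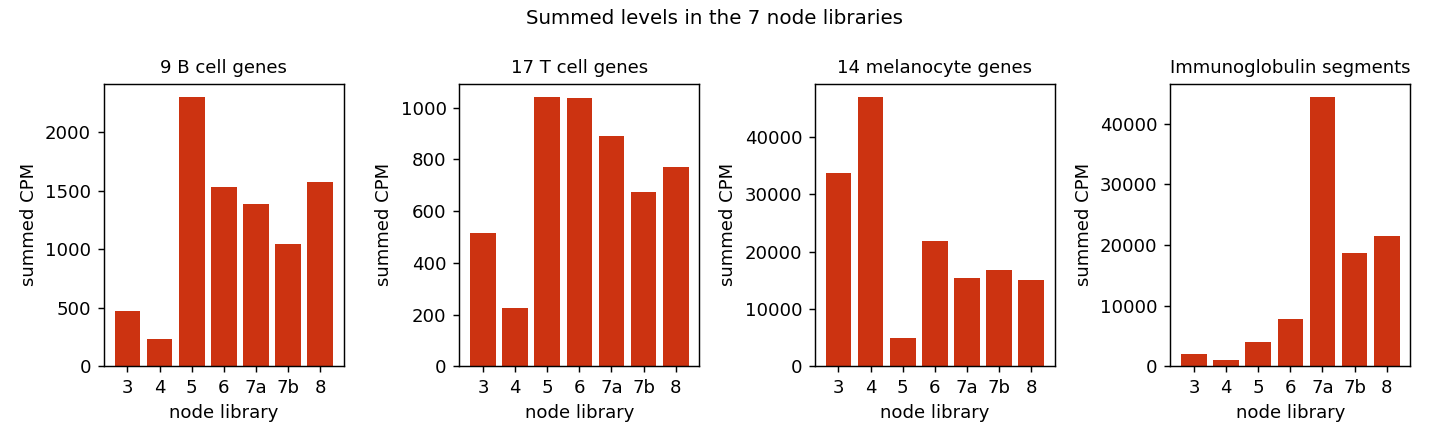
Summed CPM in each node library of the 9 B cell genes, 17 T cell genes, 14 melanocyte genes and all immunoglobulin segments. Node 5 has the highest B cell sum (2301 CPM) and the lowest melanocyte sum (4984 CPM), and node 7a has the highest immunoglobulin sum (44426 CPM).

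Immunoglobulin gene segments, the transcripts of antibody made by B and above all plasma cells, ordered the nodes differently. Their share of all gene counts was 0.240% in node 3, 0.112% in node 4, 0.487% in node 5, 0.809% in node 6, 4.25% in node 7a, 1.92% in node 7b and 2.23% in node 8. Node 5, first by the B cell genes, came after nodes 7a, 8, 7b and 6 by immunoglobulin, and node 7a held 44426 CPM of it against 4042 CPM in node 5. Jchain, which joins secreted antibody, was higher in node 7b (3393 CPM), node 8 (1923 CPM) and node 7a (1901 CPM) than in node 5 (977 CPM), but lower in node 6 (639 CPM). Nodes 7a, 7b and 8 are also the 3 node libraries with a low-quality entry, and the part of that batch was not tested.

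Relative to Cd79b in the same library, members kept narrow ranges in nodes. The CPM ratio to Cd79b was 0.702 to 1.17 for Cd79a, 0.727 to 1.12 for Ms4a1 and 1.33 to 1.70 for Cd22. It was 0.282 to 0.470 for Blk, 0.352 to 0.660 for Pax5 and 0.409 to 0.708 for Fcer2a. The widest ranges were those of Cr2, 0.597 to 1.42, and Bank1, 0.713 to 1.39, and for both genes the highest ratio was in node 5.

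**Figure D4:**
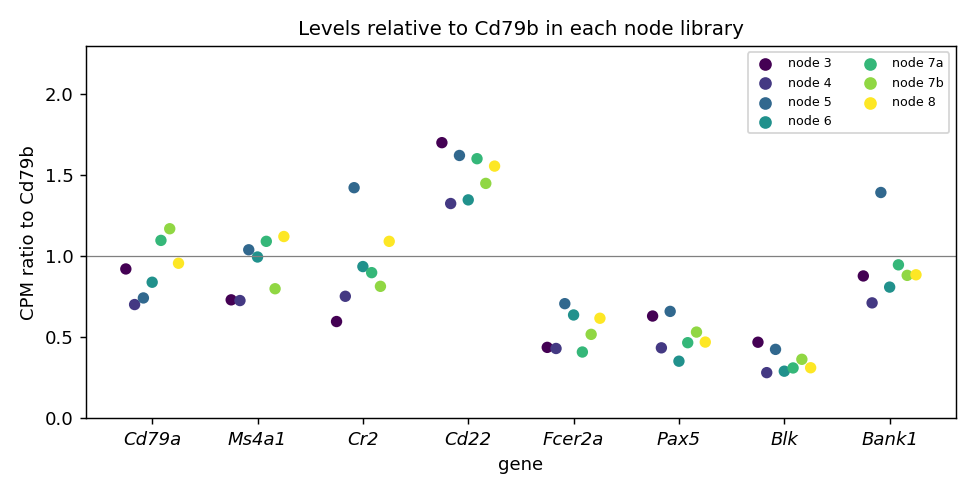
CPM of 8 genes divided by the CPM of Cd79b in the same node library. Points are the 7 node libraries, coloured by library, and the line marks a ratio of 1; Cr2 and Bank1 are highest in node 5, at 1.42 and 1.39.

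Over the 7 node libraries, which come from 6 numbers and share 1 scaling, Pearson's r of log2(CPM + 0.5) between pairs of members was 0.92 to 0.99. The 8 genes whose pattern was most like the mean of the members in nodes, out of 11074 candidates, were Gata3 (r = 0.997), Psme2b, Myo1g, Pxk, Btk, Nxpe2, Gpr183 and Cnr2. For Cr2 alone they were Ccdc69 (r = 0.997), Ssh1, Parp14, Abcg3, Cd48, Cd180, Arap1 and Bcar3. Over all 23 libraries, where the difference between nodes and other tissue dominates, they included Fcmr (r = 0.998), Cxcr5, Spib, Fcrla, H2-Oa, H2-Ob and Tnfrsf13c. These are descriptions of likeness, over few points in the nodes.

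Other genes of the B cell lineage rose beside the members in nodes; the examples named from each list were chosen by adjusted p, not by fold change, and values in parentheses are log2 fold changes. Of 28 genes of B cell receptor signalling 24 rose and none fell (median log2 fold change 2.56), among them Fcrl1 (6.04) and Fcrla (6.82). The 4 that did not pass were Bcl10 (0.50), Fcgr2b (1.08), Cd81 (-0.74) and Rasgrp3 (0.77). Of 16 B lineage transcription factors 14 rose (median 3.01), among them Spib (6.82), the coactivator Pou2af1 (7.34) and Ikzf3 (6.60), while Spi1 (1.26) and Bcl6 (0.44) did not pass. Of 16 receptors for homing, survival and help 15 rose (median 4.50), among them the BAFF receptor gene Tnfrsf13c (7.23) and Fcmr (8.10), and Il4ra (1.41) did not pass. T cells and myeloid cells also express part of these genes.

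Genes of particular B cell stages were mixed. Of 10 germinal centre genes 5 rose, among them Rgs13 (5.996) and Gcsam (4.31), and Bcl6 (0.44), S1pr2 (-0.39), Mybl1 (0.32), Gcnt1 (0.05) and Fgd6 (-0.09) did not pass. Rgs13 was at 6.04 CPM in node 7a and 4.30 in node 8, but at 0.0292 to 1.94 CPM in the other 5 node libraries, and at 1.94 in node 5, where the members were highest. Of 9 tested genes of precursor B cells 5 rose, among them Vpreb3 (5.21), the recombinase gene Rag1 (6.81) and Igll1 (6.74), and Vpreb1 (2.005), Il7r (0.89), Cd93 (0.40) and Erg (0.91) did not pass. Rag1 was at 20.4 CPM in node 7b, 9.76 in node 8, 7.44 in node 6 and 0.467 to 2.68 in the other 4.

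Of 11 genes for marginal zone and B1 cells 7 rose, among them Spn (3.91), Cd5 (4.30) and Dtx1 (3.52), and S1pr3 (-0.28), Cd9 (-0.63), Plxnd1 (-0.27) and Bhlhe41 (-0.45) did not pass. Spn and Cd5 are expressed by T cells as well. Of 10 plasma cell genes 6 rose, among them Mzb1 (6.67), Derl3 (4.54) and Jchain (6.03), and Xbp1 (0.89), Sdc1 (-1.64), Prdm1 (1.10) and Fkbp11 (-0.28) did not pass. All 8 immunoglobulin constant genes found in the files rose, among them Ighg3 (8.74), Ighm (7.04) and Ighg2b (8.10). The median log2 fold change was 1.18 for the germinal centre, 5.13 for the precursor, 1.10 for the marginal zone and B1, 1.77 for the plasma cell and 7.31 for the immunoglobulin list, beside -0.08 over all genes.

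Some lists for other cells of these tissues moved and some did not, where 12.7% of all genes tested rose and 9.81% fell. Among T cell genes Cd4 (4.99), Cd8b1 (5.90) and Lck (4.89) rose and Lef1 (1.798) did not pass. Of 9 plasmacytoid dendritic cell genes 4 rose, among them Siglech (4.01), Pacsin1 (4.26) and Ccr9 (3.38), and Bst2, Cox6a2, Ly6d, Tcf4 and Runx2 did not pass. Of 13 macrophage genes 2 rose, Marco (6.85) and C1qa (1.67), a share close to that over all genes. Of 8 genes of node stroma and vessels 5 rose, among them Glycam1 (8.33), Pecam1 (1.90) and Chst4 (6.22). All 12 keratinocyte genes fell (median -7.24), and none of 14 melanocyte genes passed (median -0.58).

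In the primaries all members were low except Cd22. The other 8 genes summed to 0.800 to 9.996 CPM in the 14 primaries, whereas Cd22 alone ran from 1.81 to 23.3 CPM, on 93 to 2146 reads. In HP primaries Cd22 was at 22.2, 23.3, 23.2, 3.33, 8.92, 4.58 and 1.81 CPM in numbers 1, 3, 4, 5, 6, 7 and 9. In HPN primaries it was at 11.5, 4.21, 10.2, 18.3, 10.1, 18.0 and 2.78 CPM in numbers 1 to 7. Cd22 made up 21.8% to 93.5% of the summed member level in primaries and 18.0% to 23.1% in nodes. Its ratio to Cd79b was 1.53 to 63.4 in primaries, so that the lowest primary (HPN 7, the one with the highest Cd79a and Cd79b in its group) lay within the 1.33 to 1.70 of the nodes and the others above it.

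Over the 14 primaries, Cd22 followed the macrophage list more closely than the other B cell genes. Pearson's r of log2(CPM + 0.5) between Cd22 and the other 8 members was -0.20 to 0.57, while it was 0.22 to 0.92 between pairs of those 8. The sum of the 13 macrophage genes is weighted to Lyz2, which averaged 1311 CPM in HP and 1064 CPM in HPN primaries. Cd68, the next highest, averaged 180 and 117 CPM. With this summed level, r was 0.96 (Spearman's rho 0.96), and it was 0.96 without the 2 primaries farthest from the median. It was 0.99 in the 7 HP and 0.98 in the 7 HPN primaries, and 0.95 in the 9 primaries without a low-quality entry; the other 5 are too few for a value. With the T cell list r was 0.55, with the immunoglobulin constant list 0.64, with the keratinocyte list 0.75 and with the melanocyte list -0.46. For the immunoglobulin constant list r was 0.75 in the HP and 0.42 in the HPN primaries. It was 0.84 in the 9 primaries without a low-quality entry and 0.32 without the 2 farthest. For the keratinocyte list r was 0.87 in the HP and 0.55 in the HPN primaries, and 0.87 without the 2 farthest. The points share the library scaling and differ in how much of each was melanoma.

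By a rule chosen after these values were seen, the 8 genes most like Cd22 over the 14 primaries were taken by Pearson's r. They were Laptm5 (r = 0.98), Fcgr3, Ctss, Cd68, Cd37, Fcer1g, Slc11a1 and Itgb2. Of these, Cd68 is on the macrophage list, and Cd37 is on the list of B cell receptors for homing, survival and help. For Cd79a, r with the macrophage list was -0.03 over the 14 primaries, but 0.49 in the HP and -0.51 in the HPN primaries. Over the 8 members other than Cd22, it ran from 0.018 (Cr2) to 0.83 (Blk) in the HP primaries. In the HPN primaries it ran from -0.64 (Fcer2a) to -0.0074 (Blk). Which cells carried Cd22 in the primaries was not tested. In the reference annotation, exons of Cd22 overlap Gm29439 on the other strand, which is not among the identifiers, and the strand setting of the counting is not given in the sources used here.

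Blk was low but also set apart in some primaries. It was at 0.881, 0.781, 0.929 and 1.41 CPM in HP primaries 1, 3, 4 and 6 and at 0.176, 0.130 and 0.0585 CPM in HP primaries 5, 7 and 9. The summed keratinocyte level of these libraries, in the same order, was 13282, 8199, 6759 and 21355 CPM and 42.3, 13.9 and 18.1 CPM. Across 14 primaries r between Blk and the keratinocyte list was 0.71 (rho 0.78, and 0.75 without the 2 farthest). It was 0.98 in the 7 HP and 0.18 in the 7 HPN primaries, so this relation rests on the HP group. With the immunoglobulin constant list r was 0.78 (rho 0.80), and it was 0.88 in the HP and 0.77 in the HPN primaries. With the T cell list r was 0.64, with the macrophage list 0.50 and with the melanocyte list -0.75. Within HPN primaries, HPN 1 had 0.977 CPM of Blk at 10734 CPM of keratinocyte genes, while HPN 5 had 0.407 CPM at 8.03 CPM. Blk rested on 3 to 86 reads in these libraries.

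**Figure D5:**
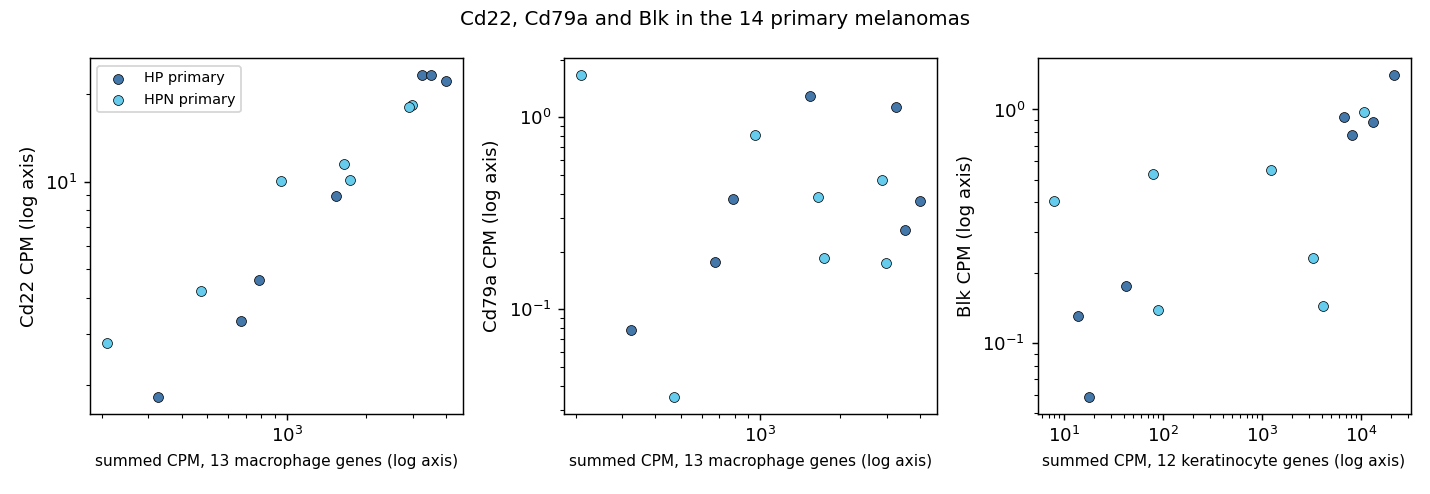
Cd22 and Cd79a against the summed CPM of 13 macrophage genes, and Blk against the summed CPM of 12 keratinocyte genes, in the 14 primary melanomas, all on log axes and coloured by genotype group. Cd22 rises along the macrophage sum (r = 0.96 on the log2 scale). Cd79a shows no such line over all 14 (r = -0.03), with r of 0.49 in the HP and -0.51 in the HPN group. Blk rises along the keratinocyte sum in the HP group (r = 0.98) but not in the HPN group (r = 0.18).

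Against HPN primaries, no member passed the test in lung metastases, and the 2 lung libraries differed from each other. Of the members 0 of 9 passed, where 0.266% of genes tested did (0.251% higher and 0.0157% lower). Ms4a1, Fcer2a and Pax5, which did not pass the filter on low counts in the fit of primaries alone, were too low in primaries and lung for their part of that count to be informative. The log2 fold changes ran from -0.50 (Cd22) to 1.53 (Ms4a1), with a median of 0.70 beside -0.06 over all genes. In lung 3 and lung 4, Cd79a was at 0.354 and 1.55 CPM, Cd79b at 0.322 and 3.31, Ms4a1 at 0.129 and 1.76 and Cd22 at 3.12 and 12.04. Cr2 was at 0.322 and 1.41 CPM, Fcer2a at 0.0643 and 1.14, Pax5 at 0.225 and 0.794, Blk at 0.161 and 1.10 and Bank1 at 0.161 and 1.35. In lung 4, Cd79b, Ms4a1 and Pax5 lay above all 14 primaries, whose highest values were 1.82, 1.29 and 0.679 CPM, whereas lung 3 lay below the highest primary for all 9 members. Lung 4 was the higher for all 9, and it was also the library with alveolar transcripts. Its macrophage sum was 3418 CPM against 597 CPM in lung 3. The part of surrounding lung tissue in these levels was not tested. With 2 libraries 5.04-fold apart in the summed level, the sign of the difference from primaries turned for 8 of the 9 when lung 4 was left out, and for Cd22 when lung 3 was.

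Against the nodes, all 9 members fell in lung metastases, where 5.04% of genes tested passed (1.96% higher and 3.09% lower). Ms4a1, Fcer2a and Pax5 did not pass the filter on low counts in the fit of primaries alone. They passed it in this fit, which includes the nodes. In lung 3 and lung 4 they held 4 and 51, 2 and 33, and 7 and 23 reads. The log2 fold changes ran from -7.67 (Bank1) to -4.93 (Cd22), with adjusted p from 0.0155 to 0.0369, and both lung libraries were below every node. With the replicate block, 0 of 9 passed (adjusted p 0.196 to 0.251), and without lung 4 none did. Without lung 3 only 2 passed, Cd79b and Bank1, and without node 8 only 4 did, Cd79a, Cd79b, Blk and Bank1. This comparison and the 2 comparisons with HPN primaries share their samples. In the same comparison 14 of 28 genes of B cell receptor signalling fell, as did 7 of 16 B lineage transcription factors, 10 of 16 receptors for homing, survival and help, 5 of 8 immunoglobulin constant genes, 3 of 11 marginal zone and B1 genes and 1 of 10 plasma cell genes. No germinal centre or precursor gene passed. Against HPN primaries, no gene of these lists passed in lung.

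No member passed the test of Nme1 and Nme2 genotype. The comparison of HPN with HP primaries called 0 of 16578 genes (0%), with 477 at an unadjusted p under 0.05, and 0 with DESeq2 and with limma voom. Ms4a1, Fcer2a and Pax5 did not pass the filter on low counts. The 6 tested members had log2 fold changes of -0.61 (SE 0.67) for Blk, -0.28 (SE 0.61) for Cd22, -0.21 (SE 0.51) for Bank1, -0.06 (SE 0.73) for Cd79a, 0.03 (SE 0.61) for Cd79b and 0.27 (SE 0.69) for Cr2. Each was smaller than its standard error. Mean Cd79a was 0.526 ± 0.483 CPM in HP and 0.533 ± 0.562 CPM in HPN primaries (SD, n = 7 each), and mean Cd22 was 12.5 ± 10.001 and 10.7 ± 6.03 CPM (SD, n = 7 each). The groups overlapped for every member. At this depth and number of samples, differences of the size of these standard errors, and larger ones too, could go undetected.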

How the data were processed

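RNA was measured in 23 libraries of directional total-RNA preparation from primary and metastatic mouse melanomas. The authors deposited raw counts of reads per Ensembl gene, made per the submitters' processing notes with bcl2fastq 1.8.4, STAR 2.5.3a and build mm9; the strand setting of the counting is not given in the sources used here. Summary entries were left out of library sizes and tests. Names came from an annotation of another build, so no gene coordinates of the files are printed. Members and lists were chosen with earlier results of these data known.

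Counts were tested with edgeR 4.0.16 (filterByExpr, TMM, robust quasi-likelihood F test, Benjamini-Hochberg over all genes tested, threshold 0.05). The 3 site comparisons came from 1 fit of HPN samples, with nodes 7a and 7b summed, and genotype from a fit of the 14 primaries. Standard errors are the log2 fold change divided by the square root of F. The fit was tested on simulated data. DESeq2 1.42.0, limma 3.58.1, other filters and scalings, a replicate block, a batch term and leaving out each sample were alternatives. Named genes were all members, and up to 3 called genes per list with the smallest adjusted p in the node comparison, with members of a list that did not pass where 5 or fewer did not. Some genes that this rule names are not reported here. The genes most like a target had the highest Pearson r of log2(CPM + 0.5) among genes of at least 5 CPM on average in nodes (in primaries for Cd22 there). Correlations have no p because the members were chosen with results known.

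The pairing by number was read from the titles (a primary, node and lung library of 1 number). Correlations of same-numbered deviations were -0.141 to 0.353 for nodes and HPN primaries. Values of lists and CPM are descriptions, and the precision is limited by the number of samples and by low counts in primaries.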

Additional observations from a re-analysis of the deposited data

How the results depend on the processing

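In nodes against HPN primaries 9 of 9 members passed under all 25 alternatives (log2 4.21 to 9.78), replicate block included (9 of 9). Lung against node gave 9 of 9, but 0 with the replicate block and 0 to 9 when a sample was left out; the block changed no other member call. Members whose sign turned, none of them called, were as follows. For genotype, Bank1 was 0.072 with the batch term, Cd79a 0.047 with 4 groups in 1 fit and 0.58 with the batch term, Cd79b -0.25 with voom and -0.015 with the replicate block, and Cr2 -0.14 with voom. With a sample left out, genotype values ran from -0.46 to 0.045 (Bank1), -0.65 to 0.35 (Cd79a), -0.30 to 0.43 (Cd79b) and -0.39 to 0.60 (Cr2). For lung against primary, Bank1 was -0.44 with voom and -0.0062 with no filter, and with a sample left out values ran from -2.19 to 0.87 (Bank1), -1.39 to 1.38 (Blk), -1.78 to 0.18 (Cd22), -0.65 to 1.51 (Cd79a), -1.31 to 2.07 (Cd79b), -1.04 to 1.12 (Cr2), -2.47 to 1.63 (Fcer2a), -1.33 to 2.44 (Ms4a1) and -0.089 to 1.74 (Pax5). The cause was not tested. Over all genes, node against primary called 4313, but 6519 with voom, 1274 with the block and 2731 without node 5. Lung against primary called 51, but 352 with DESeq2, 89 with 4 groups in 1 fit, 138 with no filter, 12 over 1 CPM, 0 with voom or the block and 0 to 393 with a sample left out. Lung against node called 966, but 2467 with DESeq2, 263 with the batch term, 0 with the block and 0 to 2017 with a sample left out; genotype called 0, and 1 with the block. CPM without TMM moved no group median of a member by more than its SD. Depth limits the members other than Cd22 in primaries and lung.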
